A study of Danio rerio with 6 samples.

Results

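Antiviral effector genes that interferon is known to induce were followed in injured zebrafish larvae treated with the Wnt antagonist IWR-1 or with vehicle. The set was 10 genes chosen by symbol: rsad2, mxa, mxb, mxc, mxe, isg15, ifit8, ifit10, zbp1 and ifi44g. An annotation entry was found for 8 of the 10, counts for 7, and 6 passed the filter on low counts, out of 22350 genes in the count table. The symbols zbp1 and ifi44g matched no gene name in the annotation, and ifit8 had no row of counts. These 3 genes were therefore not analysed here. Every gene in the count table had at least 6 counts in some library, so a missing row may mean a low gene.

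Interferons are secreted proteins that cells release when they sense viral nucleic acid. They bind surface receptors, Jak kinases then phosphorylate Stat transcription factors, and Stat and Irf factors switch on a large set of interferon-stimulated genes, of which the effectors studied here are the antiviral end. In unstimulated tissue such effectors are usually kept low, which makes them a common readout of interferon signalling in fish as in mammals.

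Both groups were wild-type AB larvae aged 5 days whose spinal cord was cut through near the anal pore and which then recovered for 6 h. The IWR-1 group was afterwards kept in 35 µM IWR-1 with 0.25% DMSO, and the control group in 0.25% DMSO without the drug. Trunk tissue of about 1 mm around the injury was taken at 3 days post injury, when larvae were 8 days old, pooling 20 animals per sample, with 3 biological replicates per group. No uninjured group was analysed here, so every comparison is drug against vehicle in injured tissue.

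Raw counts summed to between 11014963 and 15219664 per library. Levels are given as CPM, the count of a gene relative to a library size scaled by the trimmed mean of M-values (TMM). All 9 checked markers of muscle, neurons, radial glia, skin and notochord were detected in every library, the lowest being col9a1a at 0.779 CPM. Pooled tissue cannot separate a change in the number of cells of a type from a change in RNA per cell, and this holds for each value below. A gene is said to have risen or fallen where edgeR's quasi-likelihood test gave a Benjamini-Hochberg adjusted p below 0.05 over all 19562 tested genes; 3.88% of tested genes rose by this rule.

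Transcripts of rsad2 were nearly undetected in vehicle-treated larvae and present in all IWR-1 libraries. This gene encodes viperin, a radical S-adenosylmethionine enzyme that in mammals makes a chain-terminating nucleotide. It lies on chromosome 17 (35357451 to 35361322, minus strand, GRCz11; Ensembl ID ENSDARG00000004952). The 3 DMSO libraries held 0, 1 and 2 counts of rsad2 and the IWR-1 libraries 24, 48 and 40. In CPM these were 0, 0.0942 and 0.132 against 1.72, 3.77 and 2.83. No DMSO library came near the lowest IWR-1 library, which was replicate 1. The summed counts of rsad2 gave a 35.0-fold higher level with IWR-1 (95% counting interval 11.7 to 172), and the gene rose (adjusted p = 0.00101 by edgeR). The fitted log2 difference of rsad2 was 4.98 ± 0.61 SE, and 5.71 without DMSO replicate 3, which held 2 of the 3 control counts.

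Next to rsad2, on the opposite strand and 1528 bases away, lies cmpk2, which encodes a mitochondrial nucleotide kinase. It rose from 0.199 ± 0.125 to 3.02 ± 0.240 CPM (SD over 3 samples each), a log2 difference of 3.80 ± 0.42 SE with an adjusted p of 0.000488 by edgeR. The gene on the other side of rsad2, rnf144aa, was at -0.39 on the log2 fold scale and did not pass (adjusted p = 0.284 by edgeR). None of the 8 annotated effector genes overlapped another annotated gene on either strand.

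**Figure D1:**
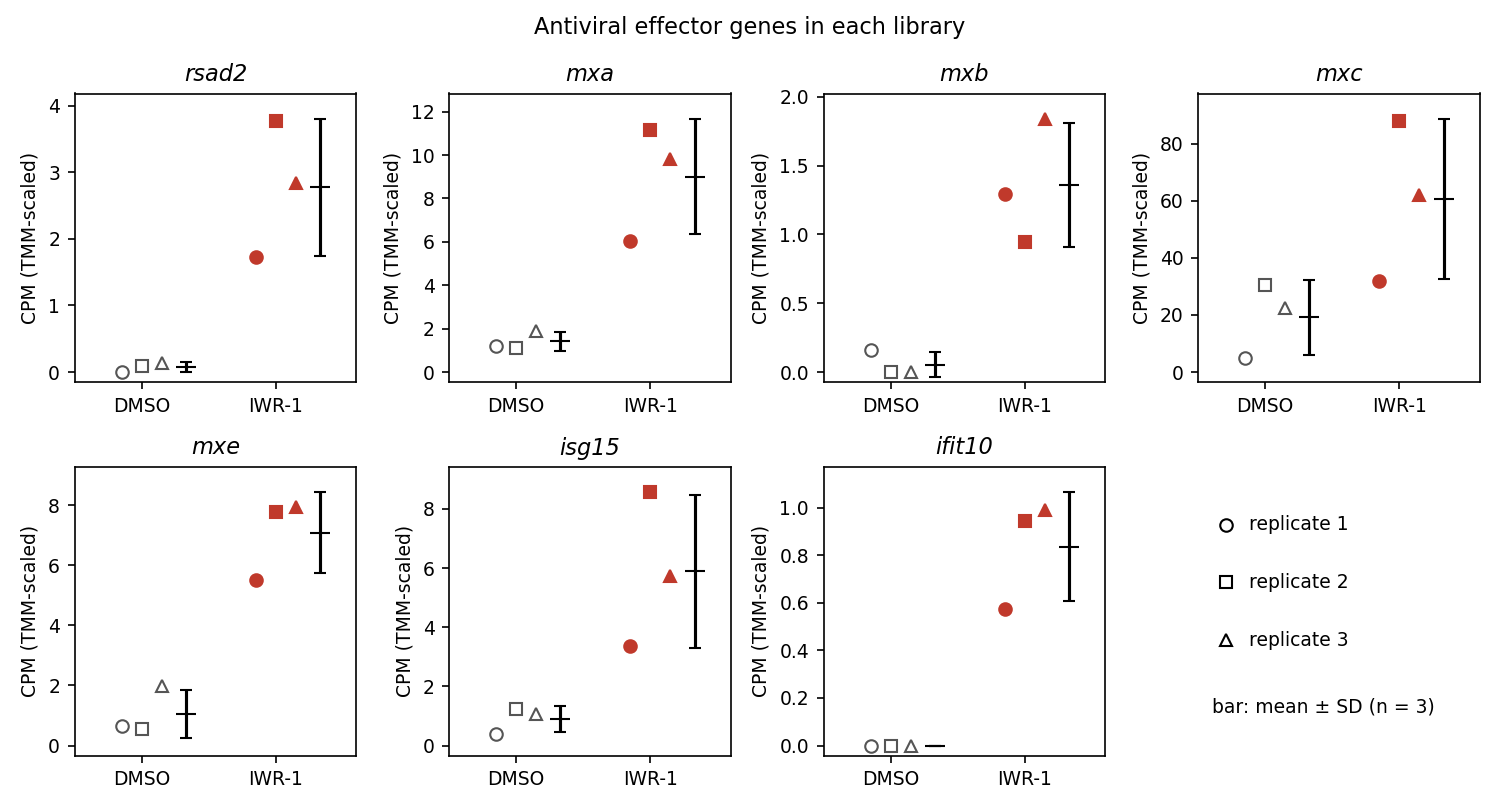
Level of each effector gene in each library, in TMM-scaled CPM on linear axes that differ between panels. Open symbols are DMSO and filled symbols IWR-1 libraries, symbol shape gives the replicate number, and bars give the mean ± SD (n = 3). In each of the 7 panels the lowest IWR-1 library lies above the highest DMSO library, by a narrow margin for mxc (32.0 against 30.3 CPM).

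The Mx genes encode dynamin-like GTPases that in mammals block incoming viral nucleoproteins. 4 of the effector genes are Mx genes, in 2 neighbouring pairs: mxa and mxb on chromosome 1, on the same strand with 4169 bases between them, and mxc and mxe on chromosome 9, with 11461 bases between them. The tests below gave a rise of mxa, mxb and mxe, whereas mxc depended on how replicates were handled.

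For mxa (chromosome 1, 7562316 to 7570181, minus strand, ENSDARG00000021688) the DMSO libraries held 15, 12 and 29 counts in order of replicate number, and the IWR-1 libraries 84, 142 and 139. The groups were well apart, and the lowest IWR-1 library was again replicate 1. The mean of mxa rose from 1.41 ± 0.434 to 9.01 ± 2.67 CPM (SD over 3 samples each), a log2 difference of 2.63 ± 0.31 SE with an adjusted p of 0.000686 by edgeR.

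Its neighbour mxb (chromosome 1, 7574351 to 7603734, minus strand, ENSDARG00000004953) was close to absent without the drug. Counts of mxb were 2, 0 and 0 in the DMSO libraries and 18, 12 and 26 with IWR-1. The level with IWR-1 was 26.3-fold higher by summed counts (95% counting interval 6.94 to 222), and mxb rose (adjusted p = 0.00575 by edgeR). Both mxb counts under vehicle came from DMSO replicate 1, so without that library the control group was at 0. The fitted log2 difference of mxb was 4.48 ± 0.75 SE. It was 3.84 without DMSO replicate 3 and 7.19 without DMSO replicate 1. In contrast to most of the other effector genes, the lowest IWR-1 library for mxb was replicate 2, at 0.943 CPM, and not replicate 1, at 1.29 CPM.

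For mxe (chromosome 9, 32824639 to 32837860, minus strand, ENSDARG00000014427) DMSO replicates 1 and 2 were at 0.639 and 0.565 CPM and DMSO replicate 3 at 1.98. The IWR-1 libraries were at 5.52, 7.78 and 7.93 CPM. DMSO replicate 3 was the highest control library for mxe, as it was for mxa and rsad2, yet it stayed below every IWR-1 library. The mean of mxe rose from 1.06 ± 0.796 to 7.08 ± 1.35 CPM (log2 difference 2.65 ± 0.38 SE, adjusted p = 0.00263 by edgeR). With DMSO replicate 3 left out the log2 fold change was 3.53, a fold more than 1.5 times as large.

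mxc, the other gene of the chromosome 9 pair (32805688 to 32813177, minus strand, ENSDARG00000024789), had the most counts of the set. DMSO libraries were at 4.79, 30.3 and 22.4 CPM and IWR-1 libraries at 32.0, 88.1 and 61.9, again in order of replicate number. Replicate 1 was low in both groups, so that IWR-1 replicate 1 sat just above DMSO replicate 2. The mean was 19.2 ± 13.1 with DMSO and 60.7 ± 28.1 with IWR-1 (SD, n = 3 each). With treatment alone in the model mxc did not pass (log2 difference 1.67 ± 0.58 SE, adjusted p = 0.126 by edgeR).

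Across the transcriptome, deviations from the group means correlated at 0.159 to 0.341 between same-numbered libraries of the groups. For differing numbers they correlated at -0.250 to 0.0584. What a number shares is not given in the labels, so pairing by it rests on these same data. A fit with that number as a replicate block gave mxc a log2 fold change of 1.83 ± 0.20 SE (adjusted p = 2.63e-05 by edgeR). Under that fit 8.96% of tested genes were higher, and all 6 tested effector genes were among them. Within replicate numbers 1, 2 and 3 the ratio of IWR-1 to DMSO for mxc was 6.67, 2.90 and 2.77. The corresponding ratios were 5.03, 9.87 and 5.14 for mxa and 8.64 and 13.8 in numbers 1 and 2 for mxe, with a lower ratio in number 3. Replicate number 1 had the highest of the 3 ratios for mxc, and number 2 for mxa and mxe. Whether the response of mxc differs from that of the other Mx genes was not tested.

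**Figure D2:**
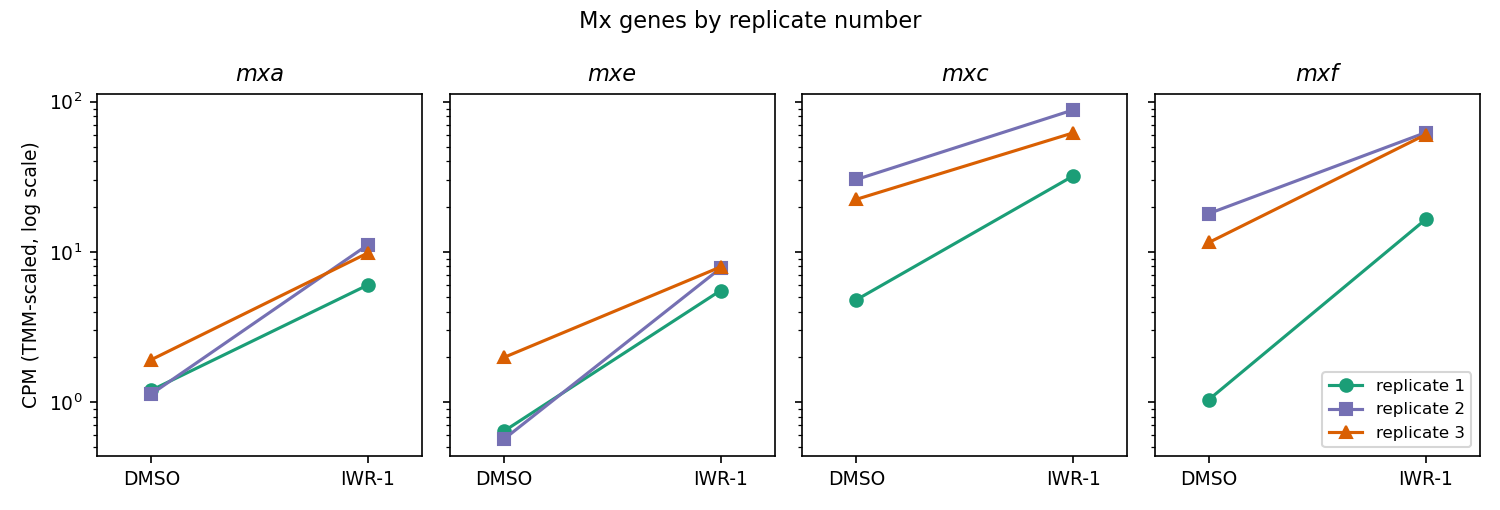
Level of mxa, mxe, mxc and mxf in each library, in TMM-scaled CPM on a shared log axis, with a line joining the DMSO and IWR-1 libraries of the same replicate number. For mxc and mxf the replicate 1 line lies below the other 2 lines in both groups (4.79 and 1.04 CPM with DMSO), while for mxa and mxe the DMSO libraries of replicates 1 and 2 lie close together. All lines run upward from DMSO to IWR-1.

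A further Mx gene, mxf on chromosome 15, had the same low values in replicate 1 as mxc. It is named here after its values were seen. DMSO libraries held 13, 191 and 175 counts of mxf and IWR-1 libraries 229, 792 and 852. The mean was 10.2 ± 8.56 CPM with DMSO and 46.3 ± 25.9 with IWR-1 (SD over 3 samples each). Scaled for library size the groups of mxf overlapped, since IWR-1 replicate 1 fell below DMSO replicate 2. For mxf the log2 fold change was 2.19 ± 0.86 SE (adjusted p = 0.183 by edgeR), and the adjusted p was 0.000174 with the replicate block.

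Near-identical gene copies can split reads in counting, so counts of all 7 Mx genes in the table were also summed to 1 feature, a choice made after seeing the data. The sum was 32.4 ± 21.4 CPM with DMSO and 125 ± 56.8 with IWR-1 (SD, n = 3 each). Its log2 fold change was 1.95 ± 0.55 SE and it did not pass (adjusted p = 0.0643 by edgeR), whereas the replicate block gave 2.12 (adjusted p = 3.92e-07 by edgeR). Without IWR-1 replicate 1 the sum passed (adjusted p = 0.0374 by edgeR). Most of the sum came from mxc (mean 19.2 CPM with DMSO and 60.7 with IWR-1) and mxf (10.2 and 46.3). It therefore says little on mxa, mxb or mxe. Also in the sum were mxd and mxg, too low to test and named after their values were seen. mxd had 6, 13 and 7 counts with IWR-1 and 3, 4 and 3 with DMSO. mxg was not higher with the drug, with 4, 4 and 2 counts against 8, 0 and 2 with DMSO.

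The ubiquitin-like modifier isg15 is made as a free protein and is attached to other proteins during the interferon response. It lies on chromosome 5 (20112032 to 20113284, plus strand, ENSDARG00000086374). DMSO libraries held 0.399, 1.22 and 1.06 CPM and IWR-1 libraries 3.37, 8.56 and 5.73. The highest IWR-1 library was replicate 2 and the lowest replicate 1, and the lowest DMSO library was replicate 1 as well. The mean of isg15 rose from 0.893 ± 0.436 to 5.89 ± 2.60 CPM (log2 difference 2.71 ± 0.43 SE, adjusted p = 0.00405 by edgeR). The ratio within replicate numbers 1, 2 and 3 was 8.44, 6.99 and 5.43. The 5 tested genes within 50 kb of isg15 ran from -0.54 (pxmp2) to 0.54 (sgsm1a) on the log2 fold scale, with adjusted p by edgeR of 0.189 and 0.233 for these extremes. The gene for the activating enzyme of the Isg15 pathway in mammals, uba7, rose from 10.6 ± 2.16 to 40.4 ± 7.08 CPM (log2 difference 1.93 ± 0.20 SE, adjusted p = 0.000314 by edgeR). For usp18, whose product removes Isg15 from proteins in mammals, the log2 fold change was 1.01 ± 0.35 SE (adjusted p = 0.107 by edgeR; 0.0105 with the replicate block); it is named here after its values were seen.

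Ifit genes encode tetratricopeptide-repeat proteins, some of which in mammals bind foreign RNA ends. ifit10 (chromosome 12, 17025726 to 17028255, minus strand, ENSDARG00000007467) had no count in any DMSO library and 8, 12 and 14 counts with IWR-1. If the DMSO group had held 3 counts, the level with IWR-1 would be 10.6-fold higher. The exact 95% counting interval of the ratio begins lower, at 8.19. It missed the filter, since 2 IWR-1 libraries and no DMSO library reached the required 0.754 CPM, and 3 libraries had to. In a fit with no filter on the count table ifit10 was called higher (adjusted p = 0.00832 by edgeR). So were the 5 effector genes that rose in the filtered fit, and 3.6% of the 22350 genes in the table.

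ifit10 stands in a row of Ifit genes on the same strand, named here after their values were seen except for ifit12. ifit11, 1646 bases away, was at 4.83 ± 0.469 CPM with IWR-1 and 4.04 ± 0.107 with DMSO (log2 difference 0.26 ± 0.20 SE, adjusted p = 0.457 by edgeR). ifit9, at 5238 bases, had 0, 0 and 9 counts with DMSO and 15, 26 and 19 with IWR-1. All 9 control counts of ifit9 came from DMSO replicate 3, and it did not pass (adjusted p = 0.0584 by edgeR; 0.0125 with the replicate block and 0.00548 without that library). ifit12 rose by 1.65 ± 0.38 on the log2 scale (adjusted p = 0.0253 by edgeR), a call lost without DMSO replicate 1 (0.0910) or IWR-1 replicate 2 (0.0752) or 3 (0.136). Within 1 row of genes the measured log2 fold changes therefore ran from 0.26 to 2.64, not counting ifit10.

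**Figure D3:**
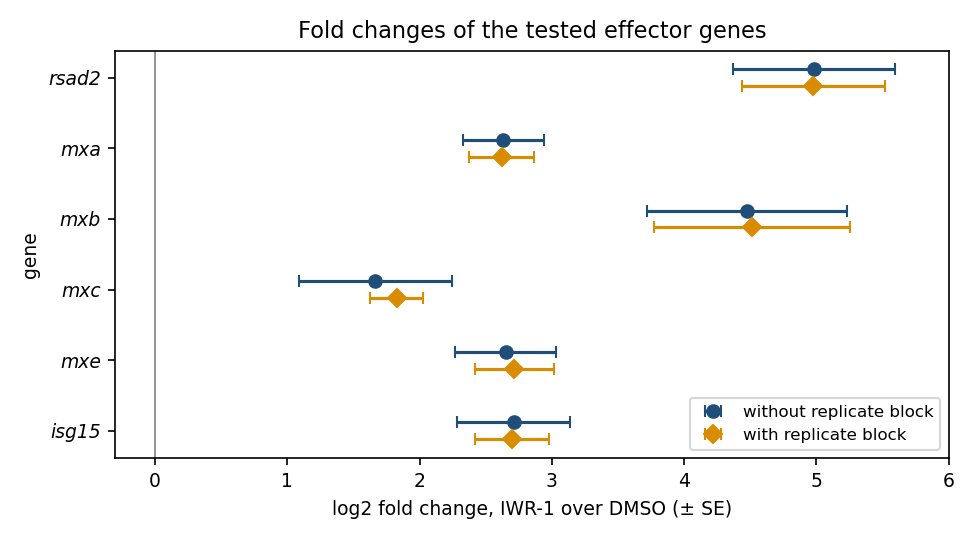
Log2 fold change of IWR-1 over DMSO (± SE) for the 6 tested effector genes, from edgeR without a replicate block (circles) and with it (diamonds). All values are above 0, the SE of mxc falls from 0.58 to 0.20 with the block, and the wide bars of rsad2 and mxb go with 3 and 2 counts in the DMSO group.

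Of the 7 effector genes with counts, 5 rose (rsad2, mxa, mxb, mxe and isg15) against the 3.88% of all tested genes. Of these, rsad2 and mxb reached the filter level in IWR-1 libraries alone. mxe also reached it in 1 DMSO library and isg15 in 2, short of the 3 libraries required, so these 4 genes were tested because they were high with IWR-1. mxa and mxc reached it in all 6 libraries. All IWR-1 libraries lay above all DMSO libraries for each of the 7 genes, as they did for 14.2% of tested genes. The 5 calls were kept in each of the 6 fits that left out 1 library. With a filter of at least 1 CPM in 3 libraries mxb was no longer tested. In the authors' deposited table the log2 fold change was 2.30 for rsad2, 2.08 for mxa, 1.59 for mxb, 1.98 for mxe, 1.90 for isg15 and 1.29 for ifit10, all with an adjusted p below 0.05, and 0.67 for mxc (adjusted p = 0.212). That table puts 4.28% of its genes with an adjusted p in the higher group. Its log2 fold changes appear shrunken, so their size cannot be set against the edgeR values above. DESeq2 run here without shrinkage gave 5.15 for rsad2, 2.65 for mxa and 4.70 for mxb.

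IWR-1 replicate 1 was the lowest of its group for 6 of 7 genes, and IWR-1 replicate 2 the highest for 4. Among controls, DMSO replicate 3 was the highest for 3 genes and the lowest for 0, not counting ties. It shared the lowest place for mxb and ifit10, with 0 counts. Summed over the effector genes other than mxc, the IWR-1 libraries held 18.5, 33.2 and 29.2 CPM and the DMSO libraries 2.40, 3.01 and 5.08. With mxc included the sums were 50.5, 121.2 and 91.1 CPM against 7.19, 33.3 and 27.5. The groups did not overlap in either sum.

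Other genes that interferon is known to induce were taken from 3 lists, with 30 genes tested. Of these 16 rose (18 with the replicate block) and 0 fell, with a median log2 fold change of 1.22 against -0.0060 over all tested genes. The share of all tested genes that rose was 3.88%, and 8.96% were higher with the block. The lists here and below were chosen with earlier results of these data known, so the counts are descriptions. Of the 4 tested Mx and Ifit genes outside the set 1 rose, ifit12, and 3 were higher with the block. Among Ifi44 genes 3 of 5 tested rose: ifi44c2 (log2 fold change 2.24), ifi44f3 (2.47) and ifi44a1 (2.17), which the reference name table matches to gene IDs with clone-based names in the deposited sheet. ifi44a5 (-0.07) and ifi44f4 (-0.23) did not pass; they are named after their values were seen. ifi44a1 was not called without IWR-1 replicate 2, nor ifi44f3 without either IWR-1 replicate 2 (adjusted p = 0.0668 by edgeR) or 3 (0.0545). As with the effector genes, the filter let in some listed genes because they were high with IWR-1. Among them, ifi44f3, ifit9 and cmpk2 were below the filter level of 0.754 CPM in every DMSO library.

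In the list of other induced effectors 12 of 21 tested genes rose and 0 fell, with a median of 1.05. Over all tested genes 3.88% rose. The 4 with the smallest p were znfx1, an RNA helicase gene, rnf213b, a large ubiquitin ligase gene, and uba7 and cmpk2, described above. znfx1 rose from 9.17 ± 0.536 to 37.3 ± 8.55 CPM (log2 difference 2.02 ± 0.19 SE, adjusted p = 0.000196 by edgeR). rnf213b rose from 9.33 ± 2.44 to 46.1 ± 11.4 CPM (log2 difference 2.29 ± 0.23 SE, adjusted p = 0.000314 by edgeR). Genes of this list without a call included isg20 (-0.36), adar (0.05) and eif2ak2 (0.04), named after their values were seen. So are tdrd7a, gig2e and cxcl11.1, which were too low to test. tdrd7a was lower with the drug, with 0, 1 and 0 counts against 5, 8 and 2 with DMSO. By summed counts its level with IWR-1 was 0.0626 of that with DMSO. The groups overlapped for gig2e (2, 9 and 2 counts with IWR-1, 2, 0 and 4 with DMSO) and cxcl11.1 (1, 5 and 9 against 0, 4 and 2).

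Upstream of the effectors, 0 of 4 tested ligand and receptor genes rose, where 3.88% of all tested genes did. That list named 14 genes, of which 9 had an annotation entry and 5 had counts. The interferon genes ifnphi2, ifnphi4, ifng1 and ifng1r were among those without counts, so their levels are not known here. The receptor symbols crfb5, crfb6, crfb13, crfb14 and crfb17 matched no gene ID, so most listed receptor genes were not examined either. The smallest p in that list belonged to the receptor genes crfb2 (log2 difference 0.64 ± 0.29 SE, adjusted p = 0.211 by edgeR) and crfb15 (0.68 ± 0.32, adjusted p = 0.230). By edgeR 0 of the 4 had an unadjusted p below 0.05, DESeq2 called 0, and crfb2 was called without DMSO replicate 2 (adjusted p = 0.0208 by edgeR). The interferon gene ifnphi1, named after its values were seen, was too low to test. It had 5, 4 and 6 counts in the IWR-1 libraries and 0, 0 and 1 in the DMSO libraries, 14.1-fold more with IWR-1 (95% counting interval 2.17 to 593). ifnphi3, another interferon gene, was at 1.42 ± 0.326 CPM with IWR-1 and 1.18 ± 0.297 with DMSO (adjusted p = 0.649 by edgeR).

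Of 18 tested signalling and transcription factor genes 6 rose and 0 fell, with a median of 0.60. With the replicate block 14 were higher. Over all tested genes 3.88% rose, and 8.96% were higher with the block. irf7, which drives interferon genes, rose by 2.71 ± 0.24 SE on the log2 scale (adjusted p = 0.000154 by edgeR). stat1b rose by 1.35 ± 0.17 (adjusted p = 0.00133) and irf10 by 2.14 ± 0.39 (adjusted p = 0.00836), while irf1b rose by 1.30 ± 0.26 (adjusted p = 0.0149). The call of irf1b was lost without IWR-1 replicate 2 (0.0590) or 3 (0.0763). The 2 other genes that rose were socs1a (1.07) and socs1b (2.31), whose products restrain Jak signalling, named after their values were seen; both calls were lost with limma voom and without DMSO replicate 1 or IWR-1 replicate 2 or 3. stat1a (0.43), stat2 (0.46) and irf9 (0.59), whose products form the complex that binds interferon-stimulated genes, did not pass, with adjusted p by edgeR of 0.117, 0.117 and 0.147 (0.0231, 0.0153 and 0.0209 with the replicate block). They too are named after their values were seen.

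Of 14 tested nucleic acid sensor and adaptor genes 5 rose and 0 fell, with a median of 0.51, where 3.88% of all tested genes rose. The log2 fold change was above 0 for 12 of them. It was below 0 for tlr8a (-1.10, adjusted p = 0.211 by edgeR) and tlr3 (-0.47, adjusted p = 0.263). For tlr8a every IWR-1 library lay below every DMSO library. mavs (0.22), traf3 (0.19) and ikbke (0.12) did not pass. These genes without a call are named after their values were seen. The symbols ddx58, rigi, cgasa and cgasb of that list, for RNA and DNA sensors, matched no gene ID. As tlr9 had no row of counts either, the levels of these genes are not known here. dhx58, an RNA sensor gene, rose from 4.26 ± 1.76 to 22.2 ± 5.96 CPM (log2 difference 2.37 ± 0.30 SE, adjusted p = 0.00131 by edgeR). tmem173, which encodes the DNA-sensing adaptor Sting, rose from 4.22 ± 0.435 to 14.0 ± 3.71 CPM (1.73 ± 0.23 SE, adjusted p = 0.00165 by edgeR). The kinase gene tbk1 (0.61) and the ubiquitin ligase gene trim25 (0.66) also rose. So did ifih1 (0.92), which encodes the RNA sensor Mda5 and is named after its values were seen, at an adjusted p of 0.0457 by edgeR. For tbk1 and trim25 the adjusted p reached 0.146 and 0.173 when 1 library was left out. tbk1 and ifih1 were not called without any 1 of the IWR-1 libraries or without DMSO replicate 1. trim25 was not called without IWR-1 replicate 2 or 3, or DMSO replicate 1 or 3.

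Over the ligand, receptor, signalling and sensor genes together 11 of 36 rose (3.88% of all tested genes), and 19 with the replicate block (8.96%). These genes are called upstream by their place in the pathway alone. Whether those that rose were themselves induced by interferon was not tested. The count was 5 without IWR-1 replicate 2 or 3 and 6 without DMSO replicate 1. Over all tested genes those called higher also went from 759 to 320, 258 and 339 in these fits, in that order. The 16 of the induced genes became 9 when IWR-1 replicate 2 was left out and 10 when replicate 3 was.

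**Figure D4:**
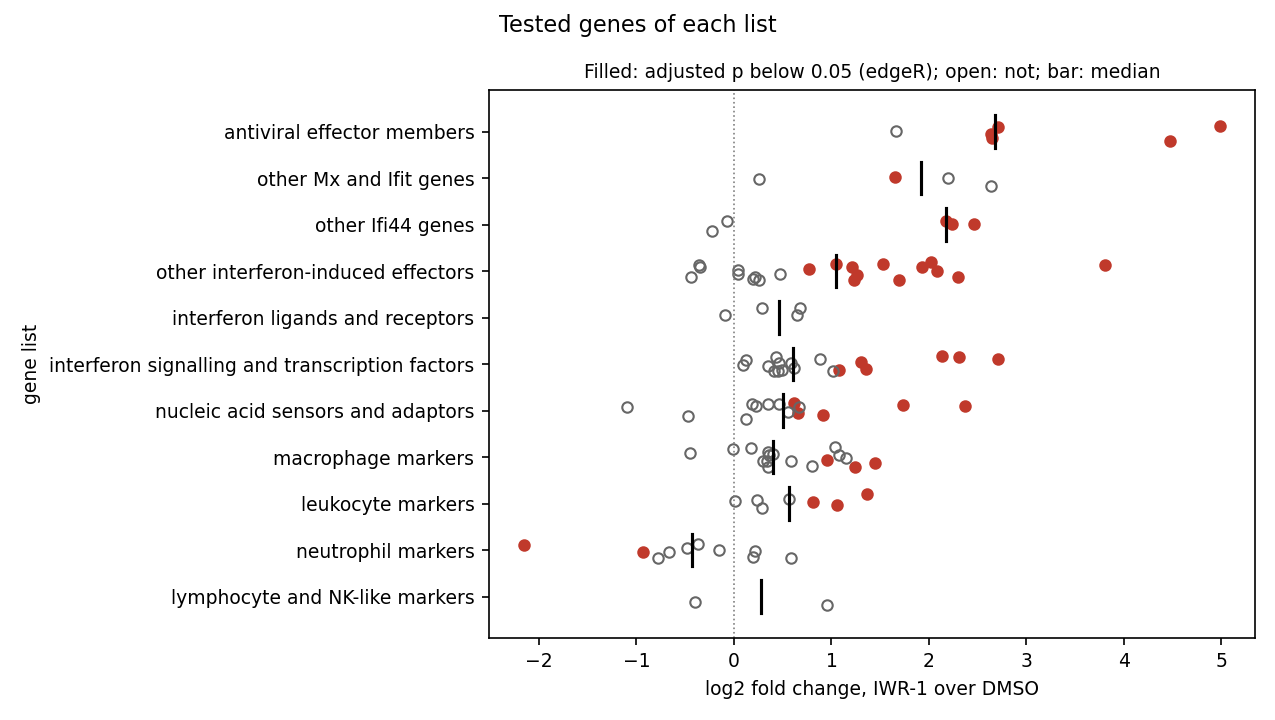
Log2 fold change of IWR-1 over DMSO for each tested gene of each list (points), with the list's median (bar). Filled points passed at an edgeR adjusted p below 0.05 and open points did not. 5 of 6 tested effector genes, 16 of 30 other induced genes and 11 of 36 upstream genes are filled and lie right of 0. Left of it lie 2 filled genes of the neutrophil marker list. Over all tested genes 3.88% rose.

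Markers of immune cells also differed between the groups, and their part in the effector results was not tested. Of 17 macrophage markers 3 rose, mpeg1.2 (log2 fold change 1.24), grn1 (1.45) and ctss2.1 (0.95), and 0 fell, with a median of 0.40. Over all tested genes 3.88% rose. Markers that did not pass included mpeg1.1 (0.30), csf1ra (0.34), csf1rb (-0.01) and c1qc (-0.45). With the replicate block 7 were higher, against 8.96% of tested genes, adding mfap4, marco, cd74b and spi1a. Apart from the 3 that rose, these markers are named after their values were seen. In mpeg1.2 the IWR-1 libraries were at 77.8, 98.1 and 139 CPM and the DMSO libraries at 41.6, 44.7 and 46.6, without overlap. grn1 and ctss2.1 did not overlap either. In 5 of the 17 markers every IWR-1 library lay above every DMSO library, as in 14.2% of tested genes. Summed levels of that list ran from 316 to 501 CPM with IWR-1 and from 234 to 323 with DMSO, so the groups overlapped. Of 7 general leukocyte markers lcp1 (1.05), ptprc (0.81) and cybb (1.36) rose, and 4 were higher with the block, adding coro1a, named after its values were seen. The summed level of those 7 was 176 to 298 CPM with IWR-1 and 154 to 191 with DMSO. The leukocyte calls, and that of ctss2.1, were lost without DMSO replicate 1 or IWR-1 replicate 2 or 3. In these fits fewer genes were called higher over the whole transcriptome too (339, 320 and 258 against 759).

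Of 10 tested genes in the list of neutrophil markers cpa5 (-2.15) and npsn (-0.93) fell, against 3.59% of all tested genes that fell, and 0 rose. cpa5 reached the filter level in every DMSO library but not in every IWR-1 library, so it was tested because it was high with DMSO. The 10 include 2 gene IDs named mmp13a, and lyz was too low to test. Both symbols are named after their values were seen. Genes of that list that did not pass included mpx (-0.37) and cxcr1 (0.20), named after their values were seen. Whether each listed gene, cpa5 among them, is particular to neutrophils in this tissue was not tested. With the block il6r, named after its values were seen, was higher. The summed level of the list was 175 to 276 CPM with IWR-1 and 217 to 347 with DMSO. Most of it came from mmp9, named after its values were seen, at 120 to 182 CPM with IWR-1 and 119 to 256 with DMSO. The sum therefore says little on the other genes of that list. The call of cpa5 was lost without IWR-1 replicate 1 or 3, or DMSO replicate 1. That of npsn was lost without DMSO replicate 3 or any 1 of the IWR-1 libraries. Lymphocyte and NK-like markers summed to 4.09 to 5.45 CPM with IWR-1 and 3.50 to 3.77 with DMSO. Of that list 2 genes could be tested, il2rb (log2 fold change 0.95) and rag2 (-0.40), and 0 passed by edgeR, 1 had an unadjusted p below 0.05 and DESeq2 called 0. Since every gene in the count table had at least 6 counts in some library, no marker with counts could be at 0 in all libraries.

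Genes outside the set were ranked by how closely their level over the 6 libraries followed the mean of the 6 tested effector genes. Among 15144 named genes with a mean of at least 1 CPM, 229 had a Pearson r above 0.95, which describes 6 libraries in 2 groups. The 10 closest were bmp2k, uba7, nos2a, ugp2b, hephl1a, ptk2ba, snx15, ifi35, fanci and spata2l, with r from 0.993 to 0.999. nos2a, an inducible nitric oxide synthase gene, rose from a mean of 0.796 to 53.1 CPM (log2 fold change 5.95, adjusted p = 0.000188 by edgeR), a call lost without DMSO replicate 2 (0.0536). ifi35 rose by 1.62 on the log2 scale (adjusted p = 0.00168 by edgeR). The first gene by r, bmp2k, differed by 0.18 on that scale and did not pass (adjusted p = 0.385 by edgeR). Each of the 6 tested effector genes is itself part of that mean, and their own r ran from 0.856 for mxc to 0.998 for rsad2.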

How the data were processed

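The submitters' processing notes name GRCz11 as the build and list STAR, featureCounts, cutadapt and FastQC. Tool versions and the strand setting: not given in the sources used here. Values deposited by the authors are raw counts for each Ensembl gene, and columns were matched to titles through the deposited sample sheet. The authors' comparison holds log2 fold changes and adjusted p-values in DESeq2-style columns, per the file headers; its log2 fold changes appear shrunken. Per the labels' protocols, the RNA kit was one for fixed tissue, and directional libraries followed ribosomal RNA depletion. Without strand-aware counting, antisense reads cannot be told apart.

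Counts were tested in R 4.3.3 with edgeR 4.0.16 (TMM, filterByExpr, robust quasi-likelihood, treatment as the only term); 19562 of 22350 genes were kept. The common biological coefficient of variation was 17.0%. SE is the fold change over the root of F. Fitted fold changes of genes with few control counts depend on the prior count, so ratios of summed counts with exact 95% binomial intervals are given for these; intervals and floors cover counting error only. Alternatives were a replicate block, RLE size factors, no filter, at least 1 CPM in 3 libraries, each library left out, DESeq2 1.42.0 and limma 3.58.1 voom. Scripts were tested on simulated data.

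Deviations from the group means of same-numbered samples correlated at 0.293, 0.341 and 0.159, all over 0.1. These correlations are not independent, since deviations cancel out within a group. The labels do not say what a number shares, so the main fit left the samples unpaired. Pairing by number was used in the replicate block alone and rests on these data. The titles call the samples biological replicates. Libraries of a group differed beyond sampling noise, with chi-square values of 8.18 or more per degree of freedom.

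The genes and lists were chosen with earlier results of these data known. Named were the effector genes, up to 4 called genes of each list with the smallest p (or the 2 smallest where none was called), and the 10 genes with the closest profile, leaving out clone-based names; others are said to be named after their values were seen.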

Additional observations from a re-analysis of the deposited data

How the results depend on the processing

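Over all genes the edgeR count of calls was 1462 and went to 3486 with the replicate block and to between 447 and 2117 when 1 library was left out. The effector genes called higher were 5, and between 4 and 6 under every alternative. Upstream genes called higher went from 11 to 19 with the replicate block and to between 5 and 16 without 1 library. Other induced genes called higher went from 16 to between 9 and 16 without 1 library. The log2 fold changes of the effector genes kept their sign under all alternatives run; mxc passed with the replicate block (1.83) and in no other fit, and the summed Mx genes passed with that block (2.12) and without IWR-1 replicate 1 (2.28). The cause was not tested. With 0 to 3 control counts, the size of the change in rsad2, mxb and ifit10 is limited by depth.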
